A study of Mus musculus with 18 samples.

Results

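The miR-34 family was followed through small RNA libraries of mouse neuroblastoma and of adrenal gland. Its 5 members were the rows of the deposited table named mmu-miR-34a-5p, mmu-miR-34b-5p, mmu-miR-34b-3p, mmu-miR-34c-5p and mmu-miR-34c-3p (written below without the species prefix), of 1966 miRNAs in all. The study sequenced 18 libraries: 3 of adrenal gland (AG, genotype CRE -), 7 of tumors with an IGF2BP1 transgene (TI, labelled T_I) and 8 of tumors with both IGF2BP1 and MYCN transgenes (TIM, labelled T_IM, genotype IMP1/MYCN, CRE +, where IMP1 is another name of IGF2BP1). Of the TI samples, 6 were IGF2BP1 +/+, CRE + and 1 was IGF2BP1 +/-, CRE +. The labels do not say whether each library came from a different mouse, and the p-values measure the spread between these samples. The study reports more tumors than animals for mice with both transgenes, so some TIM libraries may share a mouse. The source of 1 TI and 2 TIM samples was given as tumor of the adrenal gland and that of 1 TIM sample as tumor of the spine. The transgenes sat at the Rosa26 locus and were switched on by a Cre recombinase under the promoter of Dbh, an enzyme of noradrenaline synthesis, so that they were active in sympatho-adrenal cells, and all mice had been backcrossed to C57Bl6/N. The study describes its AG as adrenal glands of wildtype mice, and the ages of the mice were not used here. It gives a shorter survival for mice with both transgenes than for homozygous IGF2BP1 mice. Differences in age and in tumor type therefore cannot be told apart between TIM and TI. The IGF2BP1 transgene lacked its own 3'UTR, and by the study's account so did the MYCN transgene. AG is a whole organ with cortex, medulla, vessels and blood, whereas the tumors arose from the sympatho-adrenal lineage. The columns of the table named the group but not the sample, so the libraries are numbered here only to tell them apart, and neither the heterozygous sample nor the tumor sites could be traced in the values.

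MicroRNAs are short RNAs that guide Argonaute proteins to messenger RNAs, mostly through bases 2 to 8 from their 5' end, the seed. A hairpin precursor is cut into 2 arms, named 5p and 3p, of which one usually enters Argonaute while the other is degraded. The miR-34 family is best known as a group of direct transcriptional targets of p53 that represses regulators of the cell cycle and of survival, and MYCN is among its described targets in neuroblastoma. Mir34a stands alone in the genome, while Mir34b and Mir34c are made from a shared primary transcript. The human loci of both lie on chromosome arms that are often lost in neuroblastoma. The miR-449 family has the same seed and is abundant in multiciliated epithelium.

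The mature sequences are shown because the seed decides which members could act on the same messenger RNAs and because closely related members can share reads. They are written 5' to 3' with the seed in capitals and are those of RefSeq, with positions on GRCm38.p6, the same build as the mm10 to which the authors aligned the reads. Of the 5 members, 4 matched an entry by name, and miR-34c-5p is named only.
miR-34a-5p: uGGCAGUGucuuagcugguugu
miR-34b-5p: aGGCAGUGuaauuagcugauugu
miR-449a-5p: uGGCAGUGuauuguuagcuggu
miR-449c-5p: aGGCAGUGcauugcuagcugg
miR-34b-3p: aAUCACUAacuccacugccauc
miR-34c-3p: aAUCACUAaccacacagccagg
Of 1679 mature sequences in the reference, 4 held the seed GGCAGUG, the first 4 shown. The seed AUCACUA was held by 2, the last 2 shown. The 3p arms of Mir34b and Mir34c had the same base at 17 of 22 positions, and miR-34a-5p and miR-449a-5p at 15 of 22. Only pairs of equal length were compared, so miR-34b-5p is in no such pair, nor is miR-34c-5p, which had no entry. How close these 2 are to each other is therefore not shown.

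The hairpin of Mir34a lies on the plus strand at chr4:150068454-150068555. The hairpins of Mir34c (chr9:51103034-51103110) and Mir34b (chr9:51103562-51103645) lie on the minus strand, with 451 bases between them and a span of 612 bases for both. Their mature arms sit at chr4:150068473-150068494 (miR-34a-5p), chr9:51103610-51103632 (miR-34b-5p), chr9:51103574-51103595 (miR-34b-3p) and chr9:51103044-51103065 (miR-34c-3p). In the GENCODE annotation of the later build GRCm39, the hairpins of Mir34b and Mir34c fall within an intron of Btg4, which runs on the opposite strand. The hairpin of Mir34a falls within an intron of the non-coding gene Gm13067 and an exon of Gm37795. How reads that matched more than one locus or miRNA were counted is not given in the sources used here, so the division of reads between close members is uncertain.

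The libraries held between 11641696 and 23435621 reads on miRNAs. Values are in CPM, counts per 1000000 reads of the library, after the library's total was scaled by TMM, a method that sets libraries to a common centre. A single miRNA, miR-148a-3p, took 4.19% to 6.94% of the reads in AG, 2.29% to 61.9% in TI and 6.53% to 44.2% in TIM, so that levels depend on the scaling. TI library 5, with the 2.29%, stood apart from the other TI libraries, which had at least 30.1%, and results that change without it are given both ways. Each miRNA was tested with limma on its log2(CPM + 1), over the 726 miRNAs that reached 1 CPM in 3 or more libraries, and all 5 members were among them. An adjusted p-value (Benjamini-Hochberg over the 726) below 0.05 counted as passed. On this scale the changes of low members are understated. In these whole tissue samples, fewer cells of a type and less of the miRNA per cell cannot be told apart.

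All members had their highest mean level in AG. Of the 5 members, 4 were lower in TI than in AG (miR-34b-5p, miR-34b-3p, miR-34c-5p and miR-34c-3p), against 29.3% of the 726 miRNAs called lower in this comparison. The other one, miR-34a-5p, missed the threshold with a log2 fold change of -1.51. In TIM, 2 of 5 were lower than in AG (miR-34b-5p and miR-34c-5p), against 25.9% of all tested. For the 4 that passed in TI, every TI library lay below every AG library, as for 24.4% of all tested miRNAs. In TIM this separation held for 2 of 5 (miR-34a-5p and miR-34b-5p), against 22% of all tested. Between TIM and TI, 0 of 5 passed in limma, against 5.23% of all tested, and 0 of 5 had an unadjusted p below 0.05. The tests by edgeR and DESeq2 on the recovered reads also called 0 of 5 between the tumor types, each with 1 of 5 at an unadjusted p below 0.05. The comparisons with AG share the same 3 AG libraries and are not independent of each other.

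**Figure D1:**
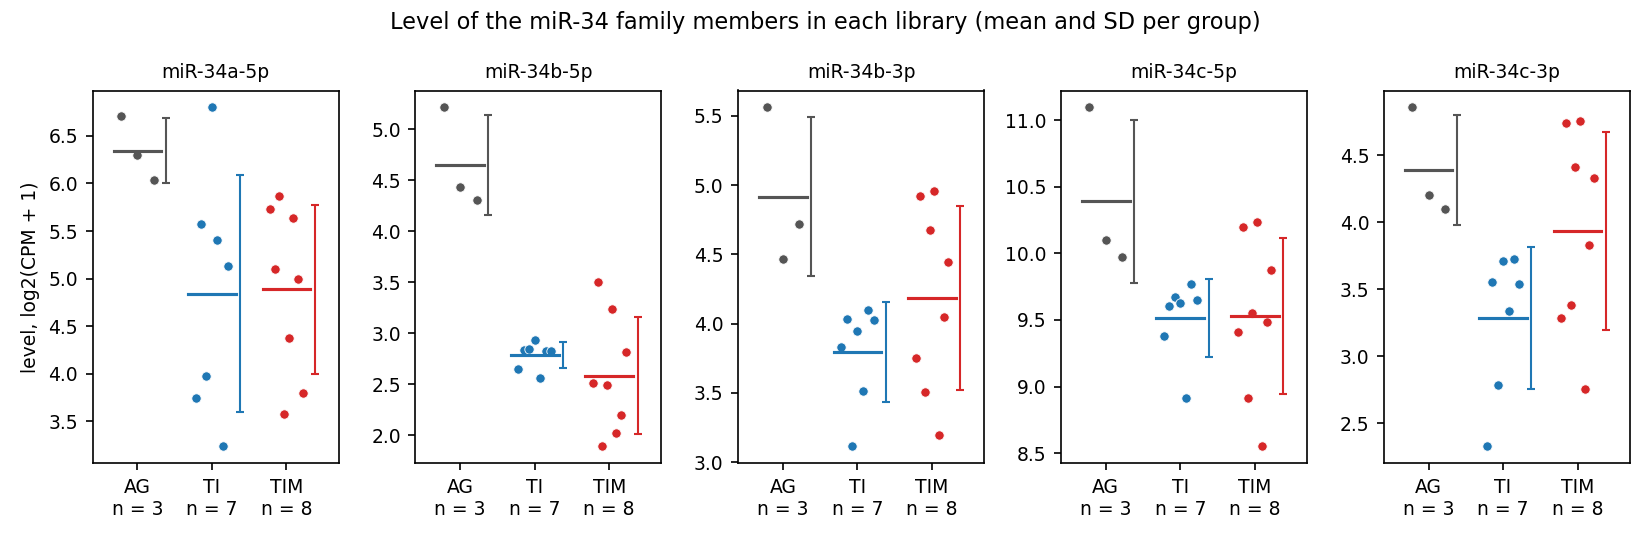
Level of each of the 5 members in log2(CPM + 1), with 1 point per library, the group mean as a line and the SD as a bar (AG n = 3, TI n = 7, TIM n = 8), each panel with its own axis. The AG libraries lie above all tumor libraries for miR-34b-5p, and 1 TI library of miR-34a-5p lies above all AG libraries.

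The member with most reads was mmu-miR-34c-5p, the guide arm of Mir34c. It held 8050 to 47269 reads per library and ranked 55th of all miRNAs by mean level in AG, 76th in TI and 79th in TIM. Its level was 2185, 1097 and 1005 CPM in the 3 AG libraries. In TI it lay between 481 and 873 CPM with a median of 789, and in TIM between 374 and 1206 CPM with a median of 734. Every TI library lay below every AG library, whereas 6 of 8 TIM libraries did, and AG library 1 was the highest of all libraries. The difference from AG in log2(CPM + 1) was -0.87 for TI (standard error 0.35, adjusted p = 0.0428) and -0.86 for TIM (standard error 0.35, adjusted p = 0.0451). Between the tumor types the difference was 0.01 (95% confidence interval -0.54 to 0.57, adjusted p = 0.982). Both calls against AG were close to the threshold. Without TI library 5, which had the lowest TI level, the TI difference was -0.77 (adjusted p = 0.0675). Without AG library 1, which had the highest level of all, it was -0.52 in TI (adjusted p = 0.298) and -0.51 in TIM (adjusted p = 0.317). The call in TI was also lost without AG library 2 (adjusted p = 0.0560) or TI library 1 (0.0620), 2 (0.0530) or 4 (0.0518), and the call in TIM without AG library 2 (0.0616) or TIM library 1 (0.0616), 3 (0.0719), 4 (0.0580), 6 (0.0706) or 7 (0.0615).

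The 5p arm of Mir34b, mmu-miR-34b-5p, showed the largest difference of the family on the log2 scale and the one that passed against AG in both tumor types in every alternative tried. It was at 36.2, 20.7 and 18.7 CPM in AG. In TI it lay between 4.91 and 6.64 CPM with a median of 6.10, and in TIM between 2.71 and 10.3 CPM with a median of 4.66. No tumor library reached the lowest AG library. The log2 fold change of TI against AG was -1.87 (standard error 0.35, adjusted p = 0.000214) and that of TIM against AG -2.07 (standard error 0.34, adjusted p = 6.47e-05), or 3.65-fold and 4.19-fold lower on this scale. It ranked 103rd lowest in TI and 74th lowest in TIM of 726. Without AG library 1 the log2 fold changes were -1.59 (adjusted p = 0.00433) and -1.79 (adjusted p = 0.00175). Between TIM and TI the difference was -0.20 (95% confidence interval -0.74 to 0.35, adjusted p = 0.718). The TI libraries were close to each other, with a coefficient of variation of 10.1%, against 37.9% in AG and 49.5% in TIM. These values rest on 59 to 782 reads per library.

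The member from the other locus, mmu-miR-34a-5p, is the one most studied as a tumor suppressor. Its level was 103, 77.8 and 64.5 CPM in AG. The TI libraries ranged from 8.44 to 110 CPM (median 34.1) and the TIM libraries from 10.9 to 57.4 CPM (median 32.1). All 8 TIM libraries lay below all AG libraries, as did 6 of 7 TI libraries, while TI library 4 lay above all AG libraries. The highest level was 13.1 times the lowest in TI and 5.25 times in TIM, against 1.60 times in AG. The log2 fold change of TI against AG was -1.51 (standard error 0.65, adjusted p = 0.0576) and that of TIM against AG -1.46 (standard error 0.64, adjusted p = 0.0648), both short of the threshold. Without TI library 4 it was -1.83 in TI and passed (adjusted p = 0.0148). TIM against TI gave 0.05 with a 95% confidence interval of -0.98 to 1.07 (adjusted p = 0.972). The call against AG also depended on the method. It was reached in both tumor types with median ratio scaling (adjusted p = 0.0489 in TI and 0.0478 in TIM), in TI with a filter of 10 CPM (0.0498) and in TIM with only TIM and AG in the model (0.0323).

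The 3p arms of Mir34b and Mir34c, which share a seed unlike that of the 5p arms, had the smallest log2 fold changes of the family in TIM against AG. The level of mmu-miR-34b-3p was 46.2, 21.1 and 25.4 CPM in AG. It ranged from 7.66 to 16.2 CPM over the TI libraries (median 14.4) and from 8.14 to 30.1 CPM over the TIM libraries (median 18.1). For mmu-miR-34c-3p the AG libraries were at 28.0, 17.5 and 16.2 CPM, the TI libraries at 4.02 to 12.3 CPM (median 10.6) and the TIM libraries at 5.77 to 26.0 CPM (median 16.2). For both, every TI library lay below every AG library, while the TIM and AG libraries overlapped. The log2 fold change in TI was -1.12 for miR-34b-3p (standard error 0.41, adjusted p = 0.0257) and -1.11 for miR-34c-3p (standard error 0.45, adjusted p = 0.0427). In TIM it was -0.73 (adjusted p = 0.137) and -0.45 (adjusted p = 0.40), and without AG library 1 -0.41 (adjusted p = 0.516) and -0.22 (adjusted p = 0.764). That of miR-34c-3p was -0.28 without TIM library 6 (adjusted p = 0.586). The difference of TIM from TI itself was 0.39 for miR-34b-3p (95% confidence interval -0.25 to 1.03, adjusted p = 0.466) and 0.65 for miR-34c-3p (-0.05 to 1.35, adjusted p = 0.255). Without AG library 1 neither passed in TI, with -0.80 (adjusted p = 0.170) and -0.87 (adjusted p = 0.186). The call of miR-34c-3p in TI was also lost without AG library 2 (adjusted p = 0.0738) or 3 (0.0631) or TI library 1 (0.0754) or 3 (0.0672).

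**Figure D2:**
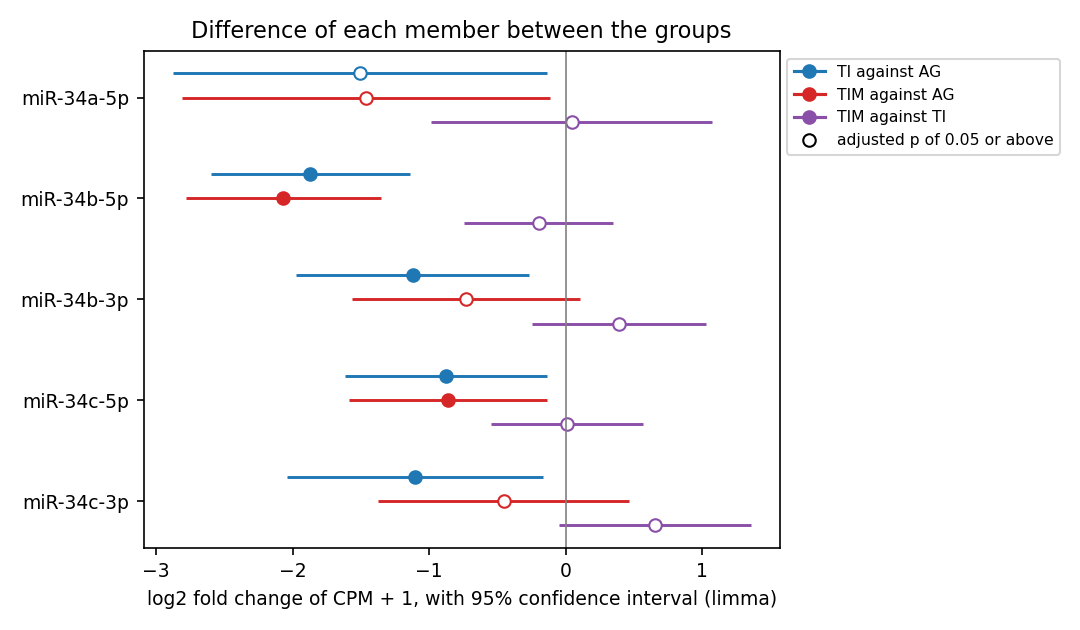
The log2 fold change of CPM + 1 of each member in the 3 comparisons, with the 95% confidence interval from limma as a line. Filled points passed an adjusted p-value of 0.05, which none of the 5 differences between TIM and TI did.

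The size of these differences depended on the scaling. Leaving the TMM factor out of CPM shifted the median of the 726 log2 fold changes against AG by -0.14 in TI and 0.23 in TIM. When miR-148a-3p was also excluded from the library totals, this median was 0.35 higher in TI and 0.39 higher in TIM than under the TMM scaling. Of the members, 1 then passed in each tumor type, miR-34b-5p, with -1.40 in TI (adjusted p = 0.00593) and -1.57 in TIM (adjusted p = 0.00233). Relative to the median of all tested miRNAs, the 5 members lay between -0.69 (miR-34c-5p) and -1.74 (miR-34b-5p) in TI under this scaling, and between -0.86 (miR-34c-5p) and -1.86 (miR-34b-5p) under the TMM scaling. In TIM they lay between -0.46 (miR-34c-3p) and -2.13 (miR-34b-5p), against -0.63 and -2.24. The direction of miR-34c-3p in TIM turned to 0.10 with this scaling (adjusted p = 0.851). When the TMM factor was left out of CPM, a factor that ran up to 1.85 in TIM, the median log2 fold change between TIM and TI rose by 0.43. Against AG in TIM, miR-34b-3p was then at -0.40 (adjusted p = 0.406) and miR-34c-3p at -0.13 (adjusted p = 0.807). In that setting miR-34b-3p (0.91, adjusted p = 0.0409) and miR-34c-3p (1.15, adjusted p = 0.0264) passed as higher in TIM than in TI, by 0.42 and 0.66 more than the median. Of all calls against AG, the share that was higher was 47.4% for TI and 49.6% for TIM. It was 42.8% and 59.1% without the TMM factor, and 59.3% and 65.7% once the totals also excluded miR-148a-3p. Between TIM and TI the share was 65.8%, with 89.0% when the TMM factor was left out and 50.9% with median ratio scaling.

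A ratio between members within a library is free of the library's scaling, apart from the 0.1 CPM added to each term, so 4 ratios were compared between the groups, 12 exact permutation tests over libraries in all (two-sided, adjusted over the 12). With 3 AG libraries the smallest p these tests allow is 0.0167 for TI and 0.0121 for TIM. The 5p arms of the shared transcript shifted against each other. In AG there were 60.4, 53.1 and 53.6 times as many reads of miR-34c-5p as of miR-34b-5p. In TI there were between 97.8 and 144 times as many (median 127), and in TIM between 114 and 199 times (median 150). No tumor library overlapped with AG. The log2 ratio of miR-34b-5p to miR-34c-5p was 1.14 lower in TI than in AG (exact permutation adjusted p = 0.0400) and 1.41 lower in TIM (exact permutation adjusted p = 0.0364), both at the smallest p the test allows. The TI libraries were at -6.94 ± 0.18 (SD, n = 7) and the TIM libraries at -7.20 ± 0.26 (SD, n = 8), a difference of -0.26 that did not pass after adjustment (exact permutation adjusted p = 0.0845). With any single AG library left out, or any TI library other than TI library 3, the adjusted p against AG in TI was between 0.0571 and 0.111 with log2 differences of -1.20 to -1.11, since fewer libraries allow only larger p-values. Without TI library 5 the ratio in TI was 1.20 lower than in AG. Without any 1 of the 3 AG libraries the ratio in TIM was at -1.47 to -1.37 against AG, and the smallest p that 2 AG libraries allow (0.0444, or 0.107 after adjustment in exact permutation tests) is above the threshold once adjusted.

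The arms of each hairpin also differed in their balance. The reads of miR-34b-5p amounted to 0.782, 0.980 and 0.738 of those of miR-34b-3p in AG. In TI the ratio lay between 0.376 and 0.805 with a median of 0.401, and in TIM between 0.188 and 0.377 with a median of 0.286. All 8 TIM libraries lay below all AG libraries, and 6 of 7 TI libraries did, the exception being TI library 3. The log2 ratio was lower by 1.504 in TIM than in AG (exact permutation adjusted p = 0.0364) and 0.84 lower in TI, which did not pass (exact permutation adjusted p = 0.0857) but did without TI library 3 (-0.98, exact permutation adjusted p = 0.0476). Between the tumor types themselves it was 0.66 lower in TIM, with 6 of 8 TIM libraries below all TI libraries (exact permutation adjusted p = 0.0112). This difference passed with each library left out in turn, with adjusted p between 0.00799 and 0.0240 in exact permutation tests. The difference from AG in TIM was -1.59 to -1.38 without any 1 of the 3 AG libraries, again at the smallest p that 2 AG libraries allow (0.107 after adjustment, exact permutation test).

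For Mir34c the 5p arm outnumbered the 3p arm by far. There were 78.0, 62.7 and 62.0 reads of miR-34c-5p for 1 of miR-34c-3p in AG, between 52.6 and 165 in TI (median 72.3) and between 37.1 and 77.8 in TIM (median 50.0). The log2 ratio of miR-34c-5p to miR-34c-3p was 0.69 lower in TIM than in TI (exact permutation adjusted p = 0.0364), with 5 of 8 TIM libraries below all TI libraries. This call was lost without TI library 1 (-0.53, exact permutation adjusted p = 0.0571), TI library 2 (-0.73, exact permutation adjusted p = 0.0519) or TI library 7 (-0.72, exact permutation adjusted p = 0.0571). Against AG the ratio did not pass in TI (0.32, exact permutation adjusted p = 0.545) or TIM (-0.37, exact permutation adjusted p = 0.182). For both hairpins the 3p arm was thus relatively more frequent in TIM than in TI on the mean log2 ratio, with overlap between the libraries. Both calls were lost with medians in place of means (exact permutation adjusted p = 0.0746 for Mir34b and 0.145 for Mir34c). Between the 3p arms there were 1.09 to 1.43 reads of miR-34b-3p for 1 of miR-34c-3p in TIM, 1.14 to 3.29 in TI and 1.21 to 1.65 in AG, a ratio that was added after the values were seen and was not tested.

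The balance between the 2 loci was the least even. There were 21.1, 14.1 and 15.6 reads of miR-34c-5p for 1 of miR-34a-5p in AG, between 7.14 and 103 in TI (median 23.5) and between 7.67 and 72.5 in TIM (median 29.2). The tumors lay on both sides of AG, with 4 TI and 5 TIM libraries above all AG libraries and 2 TI and 3 TIM libraries below. The differences of the log2 ratio were 0.68 in TI and 0.64 in TIM (exact permutation adjusted p = 0.545 for each), and -0.04 between TIM and TI (exact permutation adjusted p = 0.951). The SD of the log2 ratio was 0.31 in AG, 1.38 in TI and 1.34 in TIM.

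**Figure D3:**
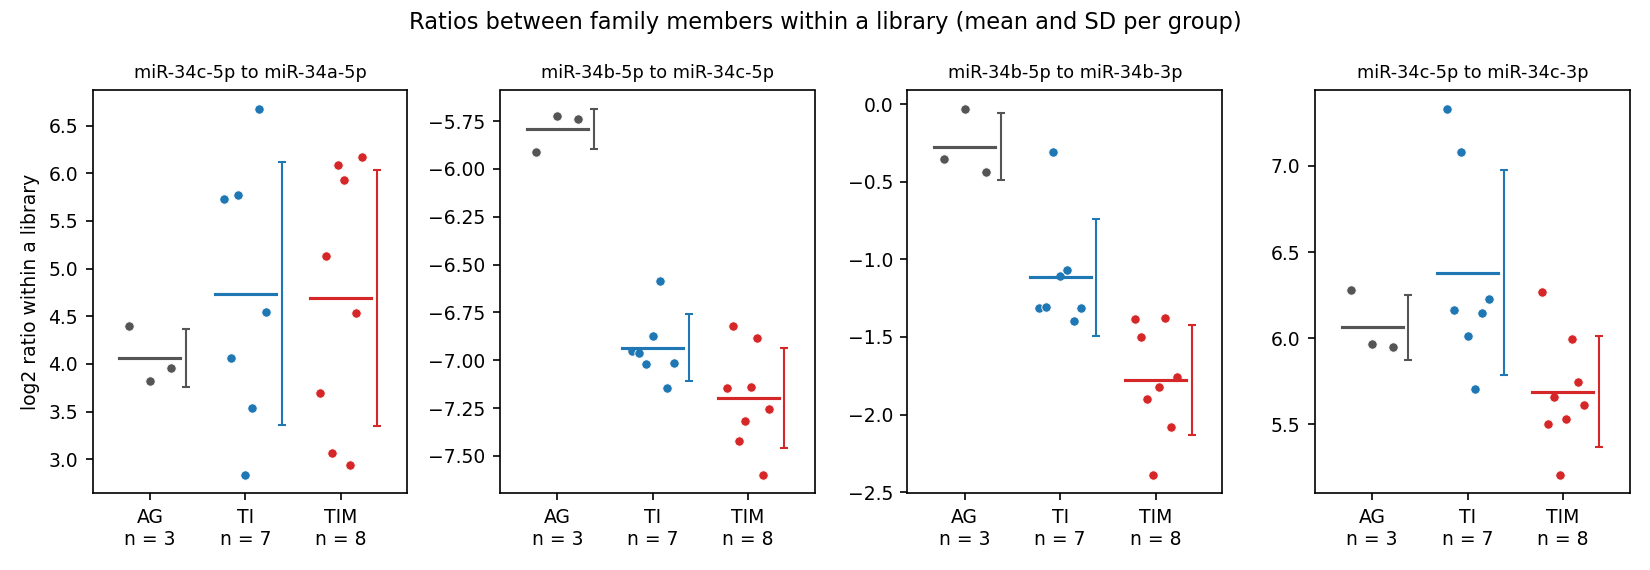
The log2 ratio of 2 members within a library for 4 pairs, with 1 point per library, the group mean as a line and the SD as a bar (AG n = 3, TI n = 7, TIM n = 8), each panel with its own axis. The ratio of miR-34b-5p to miR-34c-5p separates AG from all tumor libraries, and that of miR-34c-5p to miR-34a-5p spreads over both sides of AG in the tumors.

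Within the tumor groups, members of the shared transcript were compared with each other and with miR-34a-5p, in 6 relations adjusted together. In TIM, miR-34b-5p followed miR-34c-5p (Pearson's r = 0.92, two-sided exact permutation adjusted p = 0.00298; Spearman's rho = 0.88, exact permutation adjusted p = 0.0217, n = 8). So did miR-34c-3p (r = 0.93, exact permutation adjusted p = 0.00298; rho = 0.95, exact permutation adjusted p = 0.00685, n = 8). Without the 2 libraries farthest from the median, r was 0.86 and 0.85 over 6 libraries, each with an exact permutation adjusted p of 0.0833. When the TMM factor was left out, r was 0.94 and 0.91. In TI, r was 0.88 for miR-34b-5p with miR-34c-5p (exact permutation adjusted p = 0.0810; rho = 0.46, exact permutation adjusted p = 0.354, n = 7) and turned to -0.43 without the 2 farthest libraries, so that it rested on those. For miR-34c-5p with miR-34c-3p in TI, r was 0.26 (exact permutation adjusted p = 0.650; rho = 0.46, exact permutation adjusted p = 0.354, n = 7), and 0.08 without the 2 farthest libraries.

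The other locus did not follow. In TIM the correlation of miR-34a-5p with miR-34c-5p was negative and did not pass (r = -0.57, exact permutation adjusted p = 0.204; rho = -0.64, exact permutation adjusted p = 0.192, n = 8), with r = -0.79 without the 2 farthest libraries and r = -0.09 when the TMM factor was left out. In TI, r was -0.19 (exact permutation adjusted p = 0.669; rho = -0.43, exact permutation adjusted p = 0.354, n = 7), and -0.23 without the 2 farthest libraries. The TIM libraries 3 and 6, with TMM factors of 1.80 and 1.85, had the lowest miR-34c-5p of TIM (481 and 374 CPM) and levels of miR-34a-5p above the TIM median (57.4 and 48.8 CPM).

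**Figure D4:**
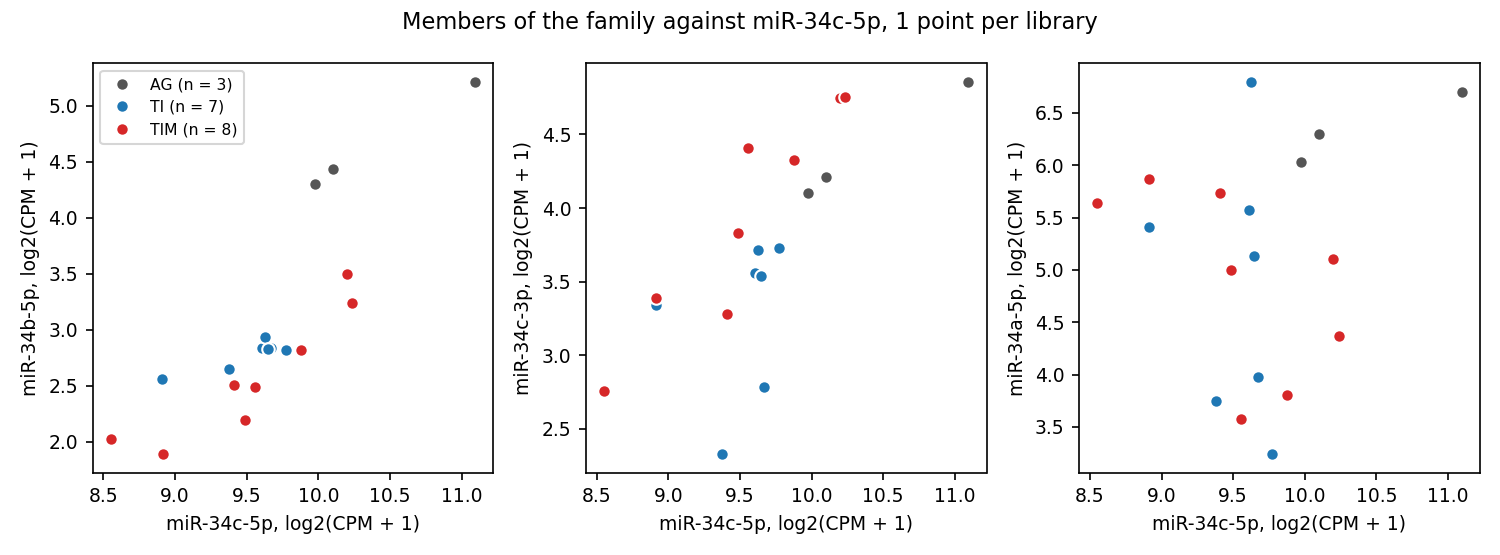
Levels of miR-34b-5p, miR-34c-3p and miR-34a-5p against that of miR-34c-5p in log2(CPM + 1), with 1 point per library colored by group (AG n = 3, TI n = 7, TIM n = 8). Within TIM the first and second rise with miR-34c-5p, and miR-34a-5p does not.

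The seed GGCAGUG was carried almost wholly by miR-34c-5p, which is counted here with the seed it is described to share in the family. Summed over miR-34a-5p, miR-34b-5p, miR-34c-5p, miR-449a-5p and miR-449c-5p, the level was 2327, 1197 and 1089 CPM in AG, 527 to 906 CPM in TI (median 841) and 429 to 1237 CPM in TIM (median 766). The share of miR-34c-5p in this sum was 91.7% to 93.9% in AG, 87.1% to 98.4% in TI and 87.2% to 97.6% in TIM. That of miR-34a-5p was 4.44% to 6.50% in AG, 0.951% to 12.2% in TI and 1.35% to 11.4% in TIM. The share of miR-34b-5p was 1.55% to 1.73% in AG, 0.685% to 0.932% in TI and 0.473% to 0.844% in TIM, without overlap between AG and the tumors.

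The miR-449 paralogs were low. Of the 5 listed, 1 passed the filter, miR-449a-5p, at 2.27, 1.31 and 1.11 CPM in AG, 0 to 15.4 CPM in TI and 1.24 to 7.93 CPM in TIM. In TI it was uneven, with 15.4 and 11.6 CPM in libraries 1 and 2, 2.11 CPM in library 3 and at most 0.139 CPM, or 2 reads, in the other 4. It was lower than all AG libraries in those 4. The log2 fold change was 0.05 in TI (adjusted p = 0.969) and 0.78 in TIM (adjusted p = 0.398), where 7 of 8 libraries lay above all AG libraries. The other arm of Mir34a, miR-34a-3p, did not pass the filter and had at most 3 reads in any library.

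Other miRNAs described as p53-linked, a list of 11 of which 10 were in the table and tested, gave 5 lower and 1 higher in TI and 6 lower and 0 higher in TIM against AG. Of all tested miRNAs, 29.3% were lower and 26.4% higher in TI, and 25.9% and 25.5% in TIM. Their median log2 fold change was -1.33 in TI and -1.24 in TIM, beside -0.01 and 0.18 over all tested miRNAs. The lower ones in both were miR-192-5p (-2.95 in TI, adjusted p = 8.59e-06, and -2.47 in TIM, adjusted p = 4.98e-05), miR-194-5p, miR-215-5p, miR-143-3p and miR-107-3p, and in TIM also miR-145a-5p. Of these, miR-192, miR-194 and miR-215 are known from liver, gut and kidney, and miR-143 and miR-145 from smooth muscle, and miR-143-3p and miR-145a-5p also stand in the list of mesenchymal and smooth muscle markers used for tissue composition. The higher one in TI was miR-16-5p (0.78, adjusted p = 0.0111), which was also the 1 that differed between TIM and TI (-0.80, adjusted p = 0.0126).

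Families with sites in the MYCN 3'UTR that the study lists beside miR-34 held 26 members, of which 22 were tested. In TI 9 were lower and 0 higher, and in TIM 9 were lower and 1 higher, with median log2 fold changes of -0.66 and -0.53. Over all tested miRNAs, 29.3% were lower and 26.4% higher in TI and 25.9% and 25.5% in TIM, and the medians were -0.01 and 0.18. Lower in both were miR-29a-3p, miR-101a-3p and the let-7 members a, d, e, f and g (5p arms). In TI alone miR-101b-3p and miR-20b-5p (-1.50, adjusted p = 0.0250) were also lower, and in TIM alone miR-29b-3p and miR-29c-3p. The higher one in TIM was miR-17-5p (2.23, adjusted p = 0.0441). The study lists miR-17 and miR-20 in 1 family, whose site it gives as predicted. No member of the list differed between TIM and TI in limma.

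Neighbours on the chromosomes were read from the 600 of 726 tested miRNAs that a single chromosome could be given to. Of all tested miRNAs, 29.3% were lower and 26.4% higher in TI and 25.9% and 25.5% in TIM, with medians of -0.01 and 0.18. Of 27 other tested miRNAs of chromosome 4, where Mir34a lies, 12 were lower and 0 higher in TI (median -0.66), and 9 lower and 4 higher in TIM (median -0.75). Of 18 of chromosome 9, with Mir34b and Mir34c, 8 were lower and 1 higher in TI (median -0.40), and 7 lower and 3 higher in TIM (median -0.28). From its DNA sequencing the study names chromosomes 4 and 9 among the main ones with deletions in TI, and reports hardly any deletions in TIM. Whether these deletions reach the miR-34 loci was not read here, and the part of copy number in the levels was not tested.

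Marker miRNAs of other cell types also differed between AG and the tumors. Their counts stand beside 29.3% lower and 26.4% higher of all tested miRNAs in TI, and 25.9% and 25.5% in TIM. Of 2 endothelial miRNAs, 2 were lower in each tumor type. Their summed level was 38529 to 46092 CPM in AG, 1704 to 6736 CPM in TI and 2428 to 8943 CPM in TIM. Of 5 mesenchymal and smooth muscle miRNAs, 4 were lower in each tumor type, and their sum was 124324 to 210988 CPM in AG, 16134 to 171667 CPM in TI and 16240 to 101974 CPM in TIM. Of 5 leukocyte miRNAs, 3 were lower in TI and 4 in TIM, with sums of 427 to 620 CPM in AG, 53.5 to 348 CPM in TI and 69.5 to 215 CPM in TIM. The liver miRNA miR-122-5p was at 780 to 2592 CPM in AG and at most 48.1 CPM in TI and 82.4 CPM in TIM. Of 4 neuronal miRNAs, 3 were higher in TI and 4 in TIM, with sums of 1026 to 1347 CPM in AG, 5089 to 14331 CPM in TI and 7015 to 21860 CPM in TIM. The 3 neuroendocrine miRNAs, miR-7a-5p, miR-7b-5p and miR-375-3p, and the 2 erythroid ones did not pass in either. Neuroendocrine sums were 49424 to 116747 CPM in AG, 28860 to 271810 CPM in TI and 34541 to 244238 CPM in TIM, and erythroid sums 516 to 1891, 222 to 3649 and 94.6 to 2056 CPM. None of these markers was at 0 in any library. The 2 multiciliated markers, miR-449a-5p and miR-449c-5p, summed to at most 2.40 CPM in AG, 16.2 CPM in TI and 9.30 CPM in TIM. The part of tissue composition in the lower levels of the family was not tested.

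The miRNAs outside the family most like the 2 main members over the 18 libraries were found by Spearman's rho of log2(CPM + 1), a description that includes the differences between the groups. For miR-34a-5p they were miR-221-3p (rho = 0.80, and 0.70 after centring on the group means), miR-152-5p (0.78 and 0.70) and miR-10a-3p (0.76 and 0.73). The mean level of miR-221-3p was 163 CPM in AG, 26.9 CPM in TI and 27.5 CPM in TIM. For miR-34c-5p they were miR-23a-3p (0.80 and 0.62), miR-27a-3p (0.75 and 0.48) and miR-24-2-5p (0.74 and 0.48), which are made from neighbouring hairpins. The mean level of miR-23a-3p was 965 CPM in AG, 260 CPM in TI and 358 CPM in TIM. Between miR-34a-5p and miR-34c-5p themselves rho was 0.06, and -0.35 after centring, whereas between miR-34b-3p and miR-34c-3p it was 0.94 and 0.90, and between miR-34b-5p and miR-34c-5p 0.87 and 0.92. For miR-34b-3p with miR-34c-5p it was 0.804 and 0.79, and for miR-34c-3p with miR-34c-5p 0.789 and 0.78. Over the 18 libraries, miR-34b-5p and miR-34b-3p thus had a higher rho with miR-34c-5p than miR-23a-3p (0.796), and miR-34c-3p a lower one.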

How the data were processed

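Small RNA of 3 adrenal glands (AG), 7 TI and 8 TIM tumors had been sequenced from about 30 mg of tissue. By the submitters' processing notes, reads were trimmed with cutadapt 2.8, aligned to mm10 with Bowtie2 2.3.5.1, counted with featureCounts 2.0.0 and normalized with edgeR 3.40. The handling of reads with several matches is not given in the sources used here. The values deposited by the authors are a signal per miRNA in CPM on TMM-scaled totals, and the planned test was kept. The table also holds the authors' own fold changes and p-values, which were not used. All values (100%, tolerance 1e-06) were whole multiples of 1 read, which gave the reads back. A count of 3 reads was the floor, at 0.101 to 0.272 CPM, and it covers counting error only. p-values measure the spread between the samples, which the labels do not tie to separate mice.

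The main test was limma 3.58.1 (R 4.3.3, trended variance), applied to log2(CPM + 1) of all 18 libraries and 726 of 1966 miRNAs. Alternatives were edgeR 4.0.16 (402, 352 and 3 calls for TI against AG, TIM against AG and TIM against TI) and DESeq2 1.42.0 on the recovered reads, other scalings, pseudocounts and filters, and each library left out. Exact permutation tests used scipy 1.17.1 in Python 3.11.15. The members and lists were chosen with earlier results of these data known. The named miRNAs were the members, the miR-449 paralogs, miR-34a-3p and the 3 tested miRNAs outside the family most like miR-34a-5p and miR-34c-5p, to which list members past the threshold were added after their values were seen.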

Additional observations from a re-analysis of the deposited data

Results flagged for a closer look

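Over 18 sets of values, each of 1 measure within 1 tumor type, of which chance would flag about 0.9, 1 library stood apart by Dixon's ratio. The ratio of miR-34b-5p to miR-34b-3p was high in TI library 3, with a gap of 0.70 of the whole range of TI. Its 0.805 compares with a TI median of 0.401.

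The tumor types differed from each other in 2 ratios when TIM was compared directly with TI. The log2 ratio of miR-34b-5p to miR-34b-3p was -1.12 in TI and -1.78 in TIM, a difference of -0.66 (exact permutation adjusted p = 0.0112). That of miR-34c-5p to miR-34c-3p was 6.38 and 5.69, a difference of -0.69 (exact permutation adjusted p = 0.0364). Against AG this second ratio passed in neither tumor type (exact permutation adjusted p = 0.545 in TI and 0.182 in TIM). Its call between TIM and TI was lost without TI library 1, 2 or 7. Both calls were lost with medians in place of means.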

How the results depend on the processing

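No paired analysis was made, since the groups differ in genotype and the labels give no pairs between them. The labels' replicate numbers are also absent from the column names. Of the 5 members, miR-34b-5p kept its direction and its side of the threshold against AG under every alternative, with log2 fold changes of -2.08 to -1.40 in TI and -2.29 to -1.53 in TIM. Differences that missed the threshold between TIM and TI changed sign with the processing: miR-34a-5p was at -0.0091 with median ratio scaling, -0.15 with edgeR and -0.13 with DESeq2, miR-34c-5p at -0.050 with median ratio scaling and -0.023 with DESeq2, and miR-34b-5p at 0.27 with CPM without the TMM factor. That scaling also took miR-34b-3p (0.91) and miR-34c-3p (1.15) past the threshold between TIM and TI. With it, miR-34c-5p in TIM against AG (-0.52) no longer passed. With miR-148a-3p excluded from the totals and no TMM factor applied, miR-34b-3p (-0.62), miR-34c-5p (-0.35) and miR-34c-3p (-0.63) in TI no longer passed. Nor did miR-34c-5p in TIM (-0.27), and miR-34c-3p in TIM turned to 0.10. Against AG, miR-34a-5p passed with median ratio scaling (-1.50 in TI, -1.51 in TIM), a filter of 10 CPM (-1.51 in TI) and only 2 groups in the fit (-1.46 in TIM). Without a filter, which adds miRNAs to the adjustment, miR-34c-5p (-0.87 in TI, -0.86 in TIM) and miR-34c-3p in TI (-1.11) missed it, as did miR-34c-5p in TIM with only 2 groups in the fit (-0.86).

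The count between TIM and TI was the least stable: 38 miRNAs as reported, 21 with a pseudocount of 5 CPM, 155 without the TMM factor (89.0% of them higher in TIM, against 65.8%), 17 with a filter of 10 CPM, 23 with only 2 groups in the fit, 3 with edgeR, 123 with DESeq2 (45.5% higher) and 24 to 68 with 1 library left out. With 1 library left out, 227 to 383 miRNAs passed in TIM against AG, the lowest without AG library 1.

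With medians in place of means, the ratio of miR-34c-5p to miR-34a-5p between TIM and TI turned to 0.28. The ratio of miR-34b-5p to miR-34c-5p (-1.23 in TI and -1.46 in TIM against AG), that of miR-34b-5p to miR-34b-3p (-1.44 in TIM against AG and -0.48 between TIM and TI) and that of miR-34c-5p to miR-34c-3p between TIM and TI (-0.53) then missed the threshold. The correlation of miR-34b-5p with miR-34c-5p in TI passed without the TMM factor (0.87) and when miR-148a-3p was also excluded from the library totals (0.995). It turned to -0.43 without the 2 libraries farthest from the median. In TIM the correlations of miR-34c-5p with miR-34b-5p (0.86) and with miR-34c-3p (0.85) missed the threshold there, with 6 libraries.

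With 1 library left out at a time, the log2 fold changes ran as follows. For miR-34a-5p they were -1.83 to -1.24 in TI and -0.22 to 0.37 between TIM and TI, for miR-34b-3p -1.35 to -0.80 in TI and -0.96 to -0.41 in TIM, for miR-34c-5p -1.08 to -0.52 in TI, -1.07 to -0.51 in TIM and -0.088 to 0.15 between TIM and TI, and for miR-34c-3p -1.25 to -0.87 in TI and -0.60 to -0.22 in TIM. The log2 ratios of miR-34c-5p to miR-34a-5p between TIM and TI ran from -0.36 to 0.28, those of miR-34b-5p to miR-34c-5p -1.20 to -1.11 in TI, -1.47 to -1.35 in TIM and from -0.32 to -0.20 between TIM and TI, those of miR-34b-5p to miR-34b-3p -0.98 to -0.72 in TI and -1.59 to -1.38 in TIM, and those of miR-34c-5p to miR-34c-3p between TIM and TI from -0.80 to -0.53. The cause of these changes was not tested. The depth limits miR-34b-5p and the 3p arm of Mir34c, with as few as 59 and 55 reads in a library.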
